A study of Mus musculus with 32 samples.

Results

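Small leucine-rich proteoglycans were followed as a family of 9 genes in mouse bone and gingiva after ligature and occlusal trauma. The 9 were Dcn, Bgn and Aspn of class I, Lum, Fmod, Kera, Prelp and Omd of class II, and Ogn of class III, taken by symbol from the 55359 gene identifiers listed for each tissue. All 9 passed the filter on low counts in both tissues, where 21205 genes were tested in bone and 20143 in gingiva. All mice were wild-type C57BL/6J males aged 9 weeks. In LiTra a maxillary left molar had both a silk thread tied around it and composite resin built on its biting surface, in Li it had the thread, in Tra it had the resin, and Co mice were left untreated. Each tissue had 16 poly(A)-selected RNA libraries, 4 per group. The labels do not give the time between treatment and sampling, the part of the jaw taken as bone, or whether each library is a separate animal. An edgeR or DESeq2 p-value here thus reflects how much libraries within groups varied, estimated over all groups of a fit. That spread may be technical.

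As background, these proteins consist of a short core of leucine-rich repeats, in most of them carrying chondroitin, dermatan or keratan sulfate chains. They bind the surface of collagen fibrils and set fibril width and spacing, and some hold growth factors such as TGF-beta in the matrix. Decorin and biglycan are abundant in gingiva, periodontal ligament and bone, soluble biglycan is a ligand of Toll-like receptors, and asporin, which binds collagen and calcium, was also named for its presence in the periodontal ligament. Lumican and fibromodulin bind a shared region of type I collagen, keratocan is best known from the cornea, prolargin anchors basement membranes to underlying tissue, osteomodulin (also called osteoadherin) is made by osteoblasts and odontoblasts, and Ogn encodes osteoglycin, also called mimecan.

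The genes lie in groups: Prelp and Fmod are neighbours on chromosome 1, Dcn, Lum and Kera follow each other on chromosome 10, Aspn, Omd and Ogn follow each other on chromosome 13, and Bgn is on the X chromosome. Promoter windows of 300 bases, from 250 before to 50 after the start, were given for 7 of the 9 genes in a RefSeq table of build GRCm38.p6. The windows of the chromosome 13 neighbours and of Fmod are shown because Aspn and Omd had the closest profiles of any pair in gingiva, Ogn lies next to them, and Fmod passed the test of a difference between tissues given further on. All 4 are on the plus strand and are printed 5′ to 3′. Capitals mark matches, on either strand, to the TATA box (TATAAA), the E box (CANNTG), a Runx motif (TGTGGT) and a Smad motif (CAGAC).
Aspn, chr13:49544193-49544492: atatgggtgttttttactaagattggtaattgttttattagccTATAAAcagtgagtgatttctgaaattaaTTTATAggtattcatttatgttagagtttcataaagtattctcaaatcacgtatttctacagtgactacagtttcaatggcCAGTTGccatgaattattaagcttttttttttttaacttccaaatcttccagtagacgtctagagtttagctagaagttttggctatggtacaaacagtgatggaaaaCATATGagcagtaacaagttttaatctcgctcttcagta
Omd, chr13:49582212-49582511: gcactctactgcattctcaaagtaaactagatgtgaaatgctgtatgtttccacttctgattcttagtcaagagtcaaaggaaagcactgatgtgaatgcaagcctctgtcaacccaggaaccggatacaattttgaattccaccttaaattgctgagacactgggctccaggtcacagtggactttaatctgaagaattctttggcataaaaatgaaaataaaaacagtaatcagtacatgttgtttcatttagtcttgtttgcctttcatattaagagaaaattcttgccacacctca
Ogn, chr13:49607765-49608064: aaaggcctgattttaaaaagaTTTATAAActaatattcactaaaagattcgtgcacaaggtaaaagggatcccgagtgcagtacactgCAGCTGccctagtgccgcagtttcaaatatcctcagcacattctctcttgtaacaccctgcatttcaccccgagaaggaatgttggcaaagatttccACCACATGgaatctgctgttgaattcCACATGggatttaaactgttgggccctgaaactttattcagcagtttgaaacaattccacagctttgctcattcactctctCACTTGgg
Fmod, chr1:134037004-134037303: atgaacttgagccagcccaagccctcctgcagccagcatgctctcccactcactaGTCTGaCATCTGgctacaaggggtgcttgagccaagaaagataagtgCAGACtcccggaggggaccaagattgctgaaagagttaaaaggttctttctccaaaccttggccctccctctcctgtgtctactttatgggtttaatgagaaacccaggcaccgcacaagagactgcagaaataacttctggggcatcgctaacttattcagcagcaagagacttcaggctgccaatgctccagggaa

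The Aspn window held 2 TATA box matches and 2 E boxes, whereas the Omd window held none of the 7 motifs searched. The Ogn window held 2 overlapping TATA box matches, 4 E boxes and a Runx match that overlaps 1 of them. The Fmod window held 1 E box and 2 Smad matches. The AP-1 (TGANTCA), STAT (TTCNNNGAA) and NF-kB letters were in none of the 7 member windows. Of 32851 windows of the same length, 13.6% held a TATA box match, 72.3% an E box, 16.8% the Runx letters, 49.6% the Smad letters, 7.81% the AP-1 letters, 8.3% the STAT letters and 0.411% the NF-kB letters.

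Bone libraries held totals of 38163979 to 70793037 estimated counts, and gingiva libraries 36913075 to 50740393. The libraries bone LiTra 1, Tra 3 and Co 3 stood apart: their 10 most abundant genes held 51.1% to 62.9% of the counts, against 7.78% to 29.3% in the other 13 bone libraries. Markers of nasal glands held 49.5% of the counts in LiTra 1, 15.8% in Tra 3 and 46.6% in Co 3, and 0.00504% to 23.9% in the other bone libraries. The 9 proteoglycan genes together made up 0.161% to 0.224% of counts in those 3 libraries, 0.357% to 0.877% in the other bone libraries and 0.124% to 0.287% in gingiva. The tissue labels fitted their markers: 6 osteoblast markers summed to 3242 to 8655 CPM (counts scaled to library size, here by the TMM method) in bone and 217 to 679 CPM in gingiva, and 6 epithelial markers to 25.3 to 2319 CPM in bone and 15917 to 29249 CPM in gingiva. In bulk tissue, fewer cells of a type and less RNA per cell cannot be told apart.

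In untreated animals, bone held more Bgn, Aspn, Ogn and Lum transcript than gingiva and less Kera. Levels were set across genes as CPM per kilobase of the longest transcript. Bgn was at 173 to 393 in bone and 53.1 to 93 in gingiva, Aspn at 197 to 736 in bone and 89.1 to 188 in gingiva, and Ogn at 92.8 to 114 in bone and 16.6 to 36.9 in gingiva. The bone libraries lay above the gingiva libraries for all 3 genes. In a fit of all 32 libraries the log2 difference of bone over gingiva was 2.12 ± 0.29 (SE) for Bgn (edgeR adjusted p = 9.69e-07), 1.89 ± 0.32 for Ogn (edgeR adjusted p = 1.65e-05) and 1.86 ± 0.46 for Aspn (edgeR adjusted p = 0.00139). These passed with every library left out in turn.

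Lum was 164 to 292 CPM per kilobase in bone and 91.6 to 201 in gingiva, with overlapping libraries, and differed by 0.70 ± 0.23 on the log2 scale (edgeR adjusted p = 0.0125). The Lum call was lost without gingiva Co 4, at 0.53 (edgeR adjusted p = 0.0629), and with library totals in place of TMM scaling, at 0.82 (edgeR adjusted p = 0.12). Dcn was near the same level in bone, 171 ± 13.1, and gingiva, 144 ± 28.1 (SD, n = 4 each), and its difference had an approximate 95% interval of -0.12 to 0.62 (log2). Fmod, Prelp and Omd did not pass either, at 0.63 ± 0.32, 0.50 ± 0.34 and 0.23 ± 0.45 on the log2 scale. Thus 4 members passed as higher and 1 as lower, where 53.6% of the 22559 genes in this fit passed in either direction, 27.2% as higher and 26.4% as lower. The tissues did not overlap for 5 members, Bgn, Aspn, Ogn, Prelp and Kera, against 50.5% of genes.

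Kera, whose product organises corneal collagen, was at the edge of detection. Its estimated counts were 0, 6, 0 and 0 in the bone Co libraries and 7, 28, 44 and 11 in the gingiva Co libraries. Bone was lower by the fit, at -4.44 ± 1.63 (edgeR adjusted p = 0.024), a value that depends on the prior count because 3 bone libraries were at 0. The call was lost without bone Co 1, -4.04 (adjusted p = 0.0637), bone Co 3, -4.20 (adjusted p = 0.0533), bone Co 4, -4.11 (adjusted p = 0.0621), or gingiva Co 3, -3.90 (adjusted p = 0.0574), all by edgeR.

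The order of the untreated genes per kilobase in bone was Aspn, Bgn, Lum, Dcn, Ogn, Omd, Fmod, Prelp and Kera. Neighbours in this order overlapped in their libraries except Dcn above Ogn, Fmod above Prelp and Prelp above Kera. In gingiva the order was Lum, Dcn, Aspn, Bgn, Omd, Ogn, Fmod, Prelp and Kera, and libraries of neighbours overlapped except Omd above Ogn, Fmod above Prelp and Prelp above Kera. The upper ranks depend on the length used. With the mean transcript length Bgn came before Aspn, and Dcn before Lum, in bone, and in gingiva Dcn came before Lum and Fmod before Ogn.

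**Figure D1:**
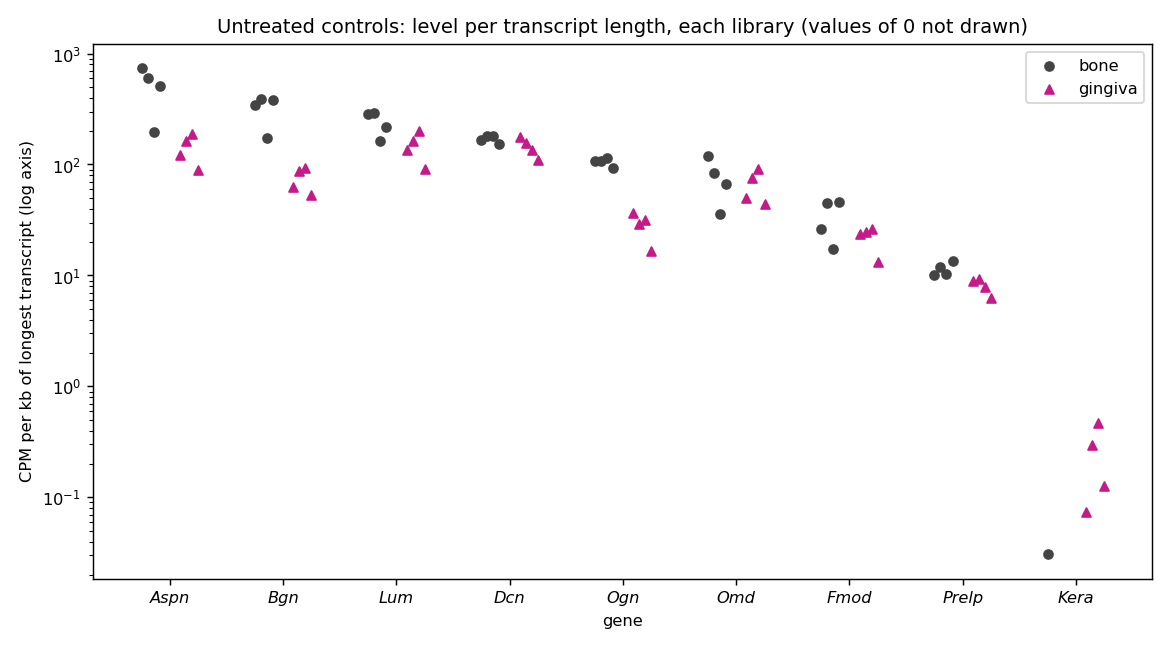
Level of each gene in the 4 untreated libraries of each tissue, as CPM per kilobase of the longest transcript on a log axis, circles for bone and triangles for gingiva, with values of 0 not drawn. Aspn, Bgn and Ogn sit higher in bone with no overlap, while Dcn lies at 154 to 182 in bone and 111 to 176 in gingiva.

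In bone, Lum rose in LiTra and in Li, and Fmod rose in LiTra, each against Co. Lum measured 1171, 2016, 1699 and 1417 CPM in the 4 LiTra libraries, 1031, 1063, 1424 and 1800.4 CPM in Li, 1133, 1255, 752 and 1213 CPM in Tra and 678, 711, 419.6 and 539 CPM in Co. Every treated library, with trauma alone included, lay above every Co library. LiTra over Co was 1.42 ± 0.25 on the log2 scale (SE, edgeR adjusted p = 0.00166), Li over Co 1.18 ± 0.25 (edgeR adjusted p = 0.0191) and Tra over Co 0.89 ± 0.25 (edgeR adjusted p = 0.409). The Tra difference did not pass.

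Fmod, which binds type I collagen and is known for its part in tendon and ligament fibrils, measured 194, 256, 261 and 405 CPM in LiTra bone, 165, 286, 222 and 292 CPM in Li, 119, 211, 175 and 232 CPM in Tra and 78.6, 141, 57.1 and 145 CPM in Co. The LiTra and Li libraries all lay above the Co libraries, and the Tra libraries overlapped them. LiTra over Co was 1.40 ± 0.32 (edgeR adjusted p = 0.0088). Li over Co, 1.19 ± 0.32 (edgeR adjusted p = 0.0561), and Tra over Co, 0.81 ± 0.32 (edgeR adjusted p = 0.466), did not pass.

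By count, 2 of the 9 members passed as higher and 0 as lower in LiTra over Co, where 16.9% of the 21205 tested genes passed in either direction, 8.29% as higher and 8.64% as lower. In Li over Co 1 member passed as higher, against 3.51% of genes in either direction, 2.66% as higher and 0.849% as lower. In Tra over Co edgeR called 0 members and 0% of genes, with 3 members and 2023 genes at an unadjusted p under 0.05, and DESeq2 called 1 member and 160 genes. Lum and Fmod were also the 2 members whose groups did not overlap in LiTra over Co and in Li over Co, which held for 25.7% and 13.6% of genes. In Tra over Co the groups of Dcn and Lum did not overlap, against 6.05% of genes. These comparisons share the same 4 Co libraries.

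The LiTra calls of Lum and Fmod kept their side of the threshold with each of the 16 bone libraries left out, and without the 3 libraries that stood apart they were 1.40 (adjusted p = 0.000924) and 1.33 (adjusted p = 0.0119) by edgeR. With library totals in place of TMM scaling the sizes were 1.45 (adjusted p = 0.369) and 1.44 (adjusted p = 0.361), so both calls ended. The Li call of Lum also ended there, at 1.27 (adjusted p = 1), and without Co 3, 1.05 (adjusted p = 0.0507), Co 4, 1.13 (adjusted p = 0.086), or Li 4, 1.0 (adjusted p = 0.0618).

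By edgeR the other members of bone did not pass in any comparison with Co. In LiTra DESeq2 also called Dcn, at 0.52 (DESeq2 adjusted p = 0.034), and Kera, at 6.04 (DESeq2 adjusted p = 0.0261). It further called Fmod in Li, at 1.19 (DESeq2 adjusted p = 0.00363), and Lum in Tra, at 0.89 (DESeq2 adjusted p = 0.0222). DESeq2 also called more of all genes in Li over Co, 1904 against 745 by edgeR. Its count over all genes in LiTra over Co is not given here. Dcn, the decorin gene, measured 812, 1373, 1271 and 1169 CPM in LiTra, 689, 803, 1068 and 1286 CPM in Li, 1152, 1387, 1004 and 1378 CPM in Tra and 759, 852, 884 and 732 CPM in Co. The 4 Tra libraries lay above all Co libraries, the LiTra and Li libraries overlapped them, and the log2 differences were 0.52 ± 0.21, 0.25 ± 0.21 and 0.61 ± 0.21 in LiTra, Li and Tra. Bgn, which binds collagen and BMPs in bone matrix, averaged 1329.9 ± 320.3, 1304 ± 440.4 and 1159 ± 277 CPM in LiTra, Li and Tra, and 859 ± 263 CPM in Co (SD, n = 4 each). The Bgn groups overlapped in every comparison, with approximate 95% intervals of 0.05 to 1.21 for LiTra and 0.02 to 1.18 for Li (log2). These intervals leave out 0 only because they are slightly narrow. By the edgeR F test the unadjusted p was 0.0506 for LiTra and 0.0602 for Li.

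Aspn, whose product competes with decorin for collagen and is known to inhibit mineralisation of periodontal ligament cells, measured 559.6, 709, 1103 and 693 CPM in LiTra bone, 474, 352, 1022 and 1684 CPM in Li, 1725, 2283, 1204 and 2102 CPM in Tra and 1652, 1385, 479.6 and 1195 CPM in Co. The 4 LiTra libraries lay below the 4 Tra libraries, and all other pairs of groups overlapped. LiTra over Tra was -1.25 ± 0.46 on the log2 scale and did not pass (edgeR adjusted p = 0.14). In that comparison 1 member, Aspn, had groups apart, against 11.8% of genes. There edgeR called 0 members and 5.56% of genes, with 2 members and 4130 of the 21205 genes at an unadjusted p under 0.05. DESeq2 called 1 member, Aspn, at -1.26 (DESeq2 adjusted p = 0.0342). Its count over all genes in that comparison is not given here.

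Omd, a keratan sulfate proteoglycan of mineralised matrix, averaged 156 ± 58.6, 160.2 ± 77.7 and 239 ± 60.8 CPM in LiTra, Li and Tra bone, and 170.3 ± 72.4 CPM in Co. Ogn averaged 242 ± 68.5, 204 ± 50.7 and 239 ± 52.3 CPM in LiTra, Li and Tra, and 272 ± 26.5 CPM in Co. Prelp averaged 39.1 ± 13.2, 33.8 ± 9.54 and 35.4 ± 12.1 CPM in LiTra, Li and Tra, and 41.5 ± 5.82 CPM in Co (SD, n = 4 each). None passed, and the approximate 95% intervals of LiTra over Co were -0.89 to 0.63 for Omd, -0.58 to 0.25 for Ogn and -0.62 to 0.45 for Prelp (log2).

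Kera had estimated counts of 0, 14, 237 and 4 in LiTra bone, 0, 8, 40 and 20 in Li, 0, 10, 0 and 60 in Tra and 0, 6, 0 and 0 in Co. LiTra 3 alone held 237 of the 255 counts of its group. The fitted difference did not pass for LiTra (edgeR adjusted p = 0.0791), Li (edgeR adjusted p = 0.398) or Tra (edgeR adjusted p = 0.598).

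Adding trauma to ligature moved no member past the threshold in bone. In LiTra over Li edgeR called 0 members and 0% of genes, with 0 members and 1352 genes at an unadjusted p under 0.05, and DESeq2 called 0 members and 106 genes. The groups of 0 members stood apart, against 4.65% of genes. Lum differed by 0.25 ± 0.24 (approximate 95% interval -0.23 to 0.72) and Fmod by 0.21 ± 0.32 (-0.41 to 0.83) on the log2 scale. For the interaction, the ligature difference under trauma minus that without it, edgeR called 0 members and 0% of genes, with 0 members and 644 genes at an unadjusted p under 0.05, and DESeq2 called 0 members and 8 genes. Of the 9 interaction values, 7 were below 0, Lum at -0.65 ± 0.34 among them. The median over all tested genes was also below 0, at -0.03, and the share of all genes below 0 is not given here. The 9 values come from the same libraries, so their signs are not independent.

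Markers of other cell types moved in the same bone libraries. Summed over 6 genes, erythroid markers were 1685 to 5751 CPM in LiTra, 6651 to 19443 CPM in Li and 22214 to 44031 CPM in Co, and cartilage markers 88 to 118 CPM in LiTra, 111 to 189.7 CPM in Li and 154 to 247 CPM in Co. Leukocyte markers (6 genes) were 296 to 538 CPM in LiTra, 302 to 1120.3 CPM in Li and 819 to 1188 CPM in Co, and osteoblast markers (6 genes) 5429.6 to 8655 CPM in LiTra, 5759 to 7485 CPM in Li and 3242 to 6199.6 CPM in Co. Fibroblast markers (7 genes) were 17891 to 31709 CPM in LiTra, 19526 to 41264 CPM in Li and 8857 to 28152 CPM in Co, and ligament and tendon markers (6 genes) 5549 to 9942 CPM in LiTra, 4171 to 12672 CPM in Li and 3269.7 to 7909 CPM in Co. The erythroid, cartilage and leukocyte sums of LiTra lay below those of Co, and the osteoblast, fibroblast and ligament sums overlapped. With trauma alone, leukocyte markers were 143 to 745 CPM, also below Co, and the other sums of Tra overlapped Co. In LiTra, Li and Co no marker of the 6 lists was at 0 in every library of a group. In Tra the cartilage marker Matn1 was. Their part in the Lum and Fmod results was not tested.

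In gingiva 1 gene fell and 2 rose: Omd was lower in LiTra and in Li, Lum was higher in LiTra and Bgn was higher in Li, each against Co. Lum measured 629, 671, 808 and 579 CPM in LiTra, 434, 463, 462 and 521 CPM in Li, 336, 502, 348 and 424 CPM in Tra and 330.2, 398, 485 and 224 CPM in Co. The LiTra libraries lay above those of every other group, and the other 3 groups overlapped. LiTra over Co was 0.90 ± 0.19 on the log2 scale (edgeR adjusted p = 0.0049) and LiTra over Tra 0.74 ± 0.19 (edgeR adjusted p = 0.0167), while Li over Co, 0.39 ± 0.19, did not pass (edgeR adjusted p = 0.241). The LiTra over Co call was kept with each of the 16 gingiva libraries left out. LiTra over Tra was lost without Tra 1, 0.67 (adjusted p = 0.0501), or Tra 3, 0.68 (adjusted p = 0.0506), by edgeR.

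Omd measured 24.7, 41.5, 97.2 and 23.7 CPM in LiTra gingiva, 22.1, 15.4, 46.2 and 62.1 CPM in Li, 87.5, 125, 86.9 and 118 CPM in Tra and 113, 169, 201 and 98.4 CPM in Co. All LiTra and Li libraries lay below all Co libraries, and the Tra libraries overlapped Co. Omd fell by 1.64 ± 0.47 on the log2 scale in LiTra (edgeR adjusted p = 0.0216) and by 2.00 ± 0.48 in Li (edgeR adjusted p = 0.0221), both against Co. The LiTra call was lost without Co 3, -1.44 (adjusted p = 0.062), LiTra 1, -1.42 (adjusted p = 0.0664), LiTra 2, -1.58 (adjusted p = 0.0549), or LiTra 4, -1.42 (adjusted p = 0.0663). The Li call was lost without Co 3, -1.80 (adjusted p = 0.0638), Li 1, -1.83 (adjusted p = 0.0672), or Li 2, -1.75 (adjusted p = 0.0684).

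Aspn, the gene next to Omd, measured 95.8, 149, 276 and 83.5 CPM in LiTra gingiva, 72, 69.6, 161 and 201 CPM in Li, 234, 342, 254 and 330.4 CPM in Tra and 281, 378, 431 and 207 CPM in Co. The Li libraries lay below all Co libraries, and 1 LiTra library, LiTra 3, reached into the Co range. Neither difference passed by edgeR, with LiTra at -1.10 ± 0.40 (edgeR adjusted p = 0.0588) and Li at -1.36 ± 0.40 (edgeR adjusted p = 0.0515). LiTra over Tra was -0.94 ± 0.40 (edgeR adjusted p = 0.111), and DESeq2 called it at -0.94 (DESeq2 adjusted p = 0.0478). Ogn, next in the same row of genes, averaged 43.1 ± 27 CPM in LiTra, 40.8 ± 9.68 CPM in Li, 62.2 ± 15.5 CPM in Tra and 72.9 ± 22 CPM in Co (SD, n = 4 each). It overlapped Co in each group and did not pass, with edgeR adjusted p = 0.147 for LiTra and 0.171 for Li.

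Bgn measured 248, 256, 465 and 296 CPM in LiTra gingiva, 286, 594, 351 and 364 CPM in Li, 249, 304, 288 and 334 CPM in Tra and 168, 232, 244 and 142 CPM in Co. All 12 treated libraries lay above all 4 Co libraries. Li over Co passed at 1.02 ± 0.25 on the log2 scale (edgeR adjusted p = 0.0235), while LiTra at 0.69 ± 0.25 (edgeR adjusted p = 0.0567) and Tra at 0.58 ± 0.25 (edgeR adjusted p = 0.709) did not. The Li call was lost without Co 1, 0.96 (adjusted p = 0.0778), Co 4, 0.90 (adjusted p = 0.0695), or Li 2, 0.76 (adjusted p = 0.0895). Dcn, its close relative, averaged 849 ± 83 CPM in LiTra, 781 ± 138 CPM in Li, 776 ± 124 CPM in Tra and 674 ± 133 CPM in Co, and its Li over Co interval was -0.10 to 0.52 (log2).

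Fmod measured 49.7, 77.4, 98.3 and 54.8 CPM in LiTra gingiva, 113, 127, 111 and 117 CPM in Li, 51, 53.8, 102 and 119 CPM in Tra and 73.9, 76.5, 80.5 and 40.9 CPM in Co. The Li libraries lay above all Co and all LiTra libraries, without passing against Co, at 0.79 ± 0.29 (edgeR adjusted p = 0.106), and LiTra over Co was 0.04 ± 0.28 (edgeR adjusted p = 0.935). Prelp, its neighbour on chromosome 1, averaged 22.6 ± 8.3 CPM in LiTra, 51.5 ± 31.8 CPM in Li, 26.9 ± 9.1 CPM in Tra and 29.2 ± 4.94 CPM in Co. Its highest library was Li 2 at 98.5 CPM, and no Prelp difference passed by edgeR. LiTra over Li was -1.19 ± 0.37 for Prelp (edgeR adjusted p = 0.109), and DESeq2 called it at -1.18 (DESeq2 adjusted p = 0.0178). Kera had estimated counts of 3, 7, 33 and 8 in LiTra, 8, 15, 72 and 46 in Li, 50, 73, 18 and 33 in Tra and 7, 28, 44 and 11 in Co, and its groups overlapped in every comparison.

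By count, 1 member passed as higher and 1 as lower in LiTra over Co, where 22.9% of the 20143 genes passed in either direction, 11.4% as higher and 11.5% as lower. In Li over Co it was again 1 and 1, against 7.49% of genes, 5.19% as higher and 2.3% as lower. Groups did not overlap for 3 members in LiTra over Co (Bgn, Lum and Omd) and 4 in Li over Co (Bgn, Aspn, Fmod and Omd), against 28.5% and 14.6% of genes. DESeq2 called 2 more members in each. In LiTra over Co these were Aspn at -1.10 (DESeq2 adjusted p = 0.015) and Bgn at 0.69 (DESeq2 adjusted p = 0.0207). In Li over Co they were Aspn at -1.37 (DESeq2 adjusted p = 0.00409) and Fmod at 0.78 (DESeq2 adjusted p = 0.0394). DESeq2 also called more of all genes in Li over Co, 2755 against 1509 by edgeR. Its count over all genes in LiTra over Co is not given here. LiTra over Tra gave 1 member, Lum, as higher and with groups apart, where 18.8% of genes passed, 9.36% as higher and 9.44% as lower, and 23.5% had groups apart. In Tra over Co edgeR called 0 members and 0% of genes, with 1 member and 1323 genes at an unadjusted p under 0.05, and DESeq2 called 0 members and 92 genes. There 1 member, Bgn, had groups apart, against 5.08% of genes. In LiTra over Li edgeR called 0 members and 0.0844% of genes, with 3 members and 3736 of the 20143 genes at an unadjusted p under 0.05. DESeq2 called 1 member, Prelp, and 1413 genes there. Lum at 0.52 ± 0.19 and Fmod at -0.74 ± 0.29 had groups apart there, against 10.5% of genes, with edgeR adjusted p = 0.171 and 0.178. In the interaction edgeR called 0 members and 0% of genes, with 2 members and 2289 genes at an unadjusted p under 0.05, and DESeq2 called 0 members and 183 genes.

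In LiTra gingiva leukocyte and epithelial marker sums stood above, and cartilage sums below, those of Co. Over 6 genes each, leukocyte markers summed to 132 to 232 CPM in LiTra, 61.9 to 259 CPM in Li and 21.7 to 70.8 CPM in Co, and cartilage markers to 7.82 to 14.2 CPM in LiTra, 10.6 to 27.3 CPM in Li and 20.5 to 40.7 CPM in Co. Epithelial markers (6 genes) summed to 23591 to 26448 CPM in LiTra, 18620.5 to 28611 CPM in Li and 15917 to 21754 CPM in Co. In Li all 3 sums overlapped those of Co. Elane was at 0 in all LiTra libraries, Matn1 was at 0 in all 16 gingiva libraries, and Col9a1 was at 0 in all Co libraries. Osteoblast markers (6 genes), the cell type in which Omd is known, summed to 258 to 420.4 CPM in LiTra, 217 to 410.01 CPM in Li and 346 to 679 CPM in Co, and skeletal muscle markers (6 genes) to 78.7 to 349.8 CPM in LiTra, 392 to 2365 CPM in Li and 109 to 2521 CPM in Co. Ligament and tendon markers (6 genes) were 1256 to 1999 CPM in LiTra, 964 to 1395 CPM in Li and 975 to 1782 CPM in Co and overlapped. Fibroblast markers (7 genes) were 3736 to 6675 CPM in LiTra, 3688 to 7874 CPM in Li and 2137 to 4724 CPM in Co and overlapped as well. Their highest library was Li 2, without which the Bgn call was lost. The part of these cells in the Lum, Bgn and Omd results was not tested.

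**Figure D2:**
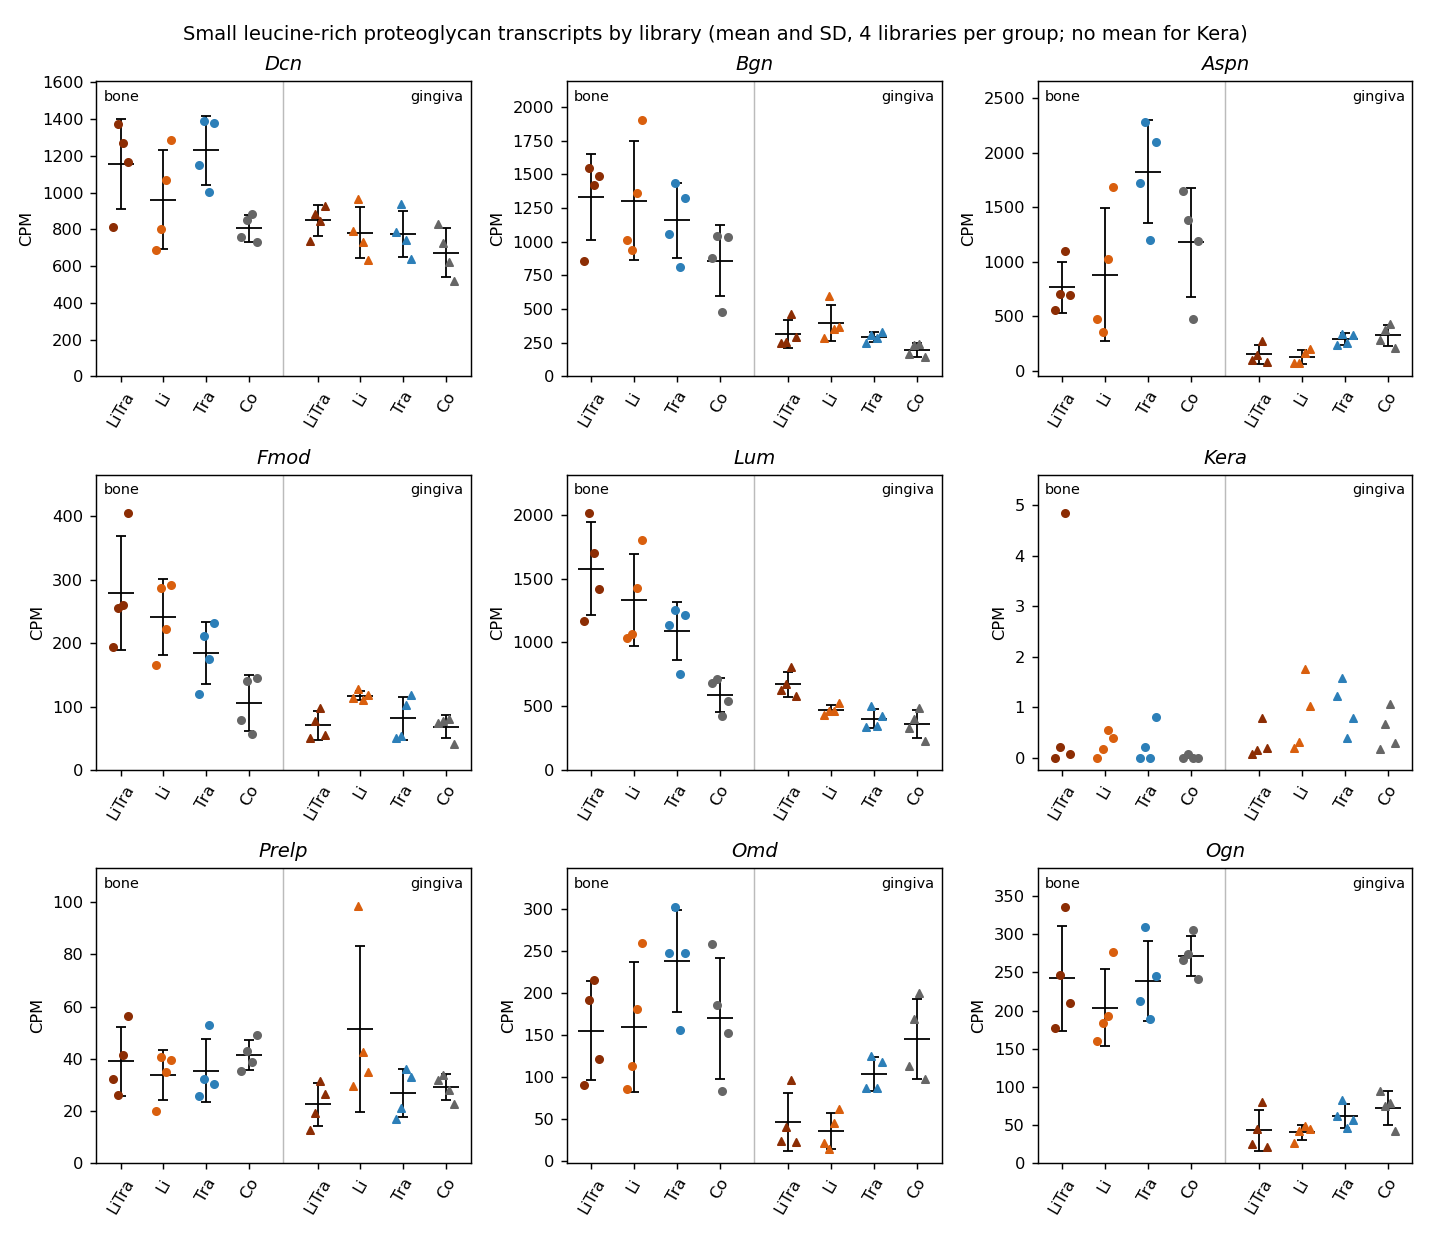
CPM of each of the 9 genes in every library, circles for bone and triangles for gingiva, with the mean and SD of 4 libraries per group drawn for all genes but Kera. In bone every treated library lies above every Co library for Lum, and Omd in gingiva lies at 23.7 to 97.2 CPM in LiTra and 15.4 to 62.1 CPM in Li, below the 98.4 to 201 CPM of Co.

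**Figure D3:**
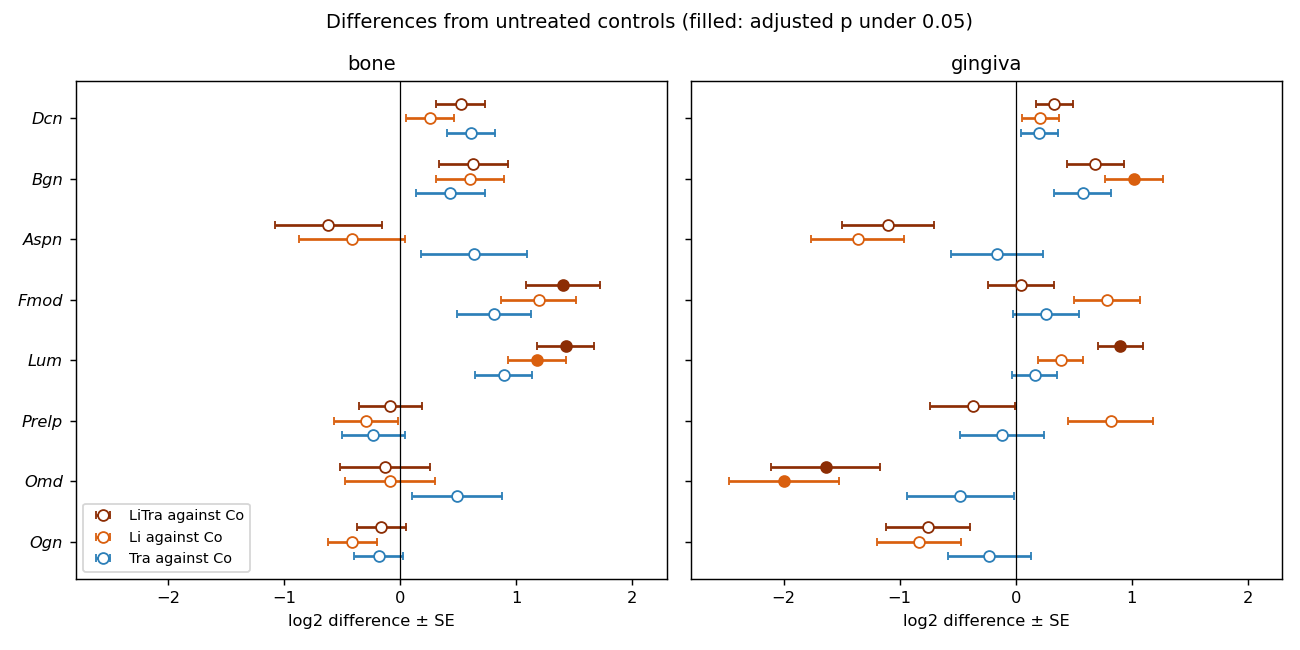
Log2 difference from untreated controls with its SE for 8 genes in bone (left) and gingiva (right), for LiTra, Li and Tra; Kera is not drawn, and filled points passed an adjusted p of 0.05. In bone the filled points are Lum in LiTra and Li and Fmod in LiTra, and in gingiva Bgn in Li, Lum in LiTra and Omd in LiTra and Li.

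Whether the tissues answered differently was tested directly in the fit of all 32 libraries. Of the 9 members, Fmod and Kera passed for LiTra, where 12.3% of genes passed in either direction, 5.59% as higher and 6.68% as lower. The LiTra difference of Fmod was higher in bone than in gingiva by 1.37 ± 0.45 on the log2 scale (edgeR adjusted p = 0.0437), from 1.40 ± 0.32 in bone and 0.04 ± 0.28 in gingiva. The call was lost in 16 of 32 fits without 1 library, at 1.13 to 1.42 with an edgeR adjusted p of up to 0.113, namely without bone LiTra 2, 3 or 4, Li 3, Tra 2, Co 1 or 3, or gingiva LiTra 1, 2 or 4, Li 1, 2 or 4, or Co 1, 2 or 3. Without the 3 bone libraries that stood apart it was 1.27 (adjusted p = 0.0599), with library totals 1.30 (adjusted p = 0.416) and with no filter on low counts 1.36 (adjusted p = 0.075).

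Kera passed at 6.53 ± 2.13 (edgeR adjusted p = 0.0436), and without bone LiTra 3, which held most of its counts, it was 2.88 (adjusted p = 0.375). With library totals it was 6.58 (adjusted p = 0.171), with no filter on low counts 6.50 (adjusted p = 0.0718) and with the replicate block 5.56 (adjusted p = 0.0644). That call was lost in 15 of 32 fits without 1 library, namely without bone LiTra 3, Li 2, Tra 2, Co 1, 3 or 4, or gingiva LiTra 1, 2 or 4, Li 4, Tra 4, or Co 1, 2, 3 or 4, and apart from LiTra 3 those values were 5.99 to 6.83. Omd, called with ligature in gingiva and not in bone, was not shown by edgeR to differ between tissues: its LiTra difference was 1.51 ± 0.64 higher in bone (edgeR adjusted p = 0.129) and its Li difference 1.91 ± 0.64 (edgeR adjusted p = 0.111), which DESeq2 called at 1.92 (DESeq2 adjusted p = 0.029). Lum, higher in both tissues with LiTra, differed by 0.53 ± 0.33 (edgeR adjusted p = 0.326). For Li edgeR called 0 members, where 2.04% of genes passed. At an unadjusted edgeR p under 0.05 were 3 members and 3901 of the 22559 genes. DESeq2 called 1 member, Omd, and its count over all genes is not given here.

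Ratios of 2 members' counts within a library do not depend on how libraries are scaled. They were compared for 7 pairs in 5 comparisons and 2 tissues, 70 two-sided exact permutation tests in all, in which 4 against 4 libraries cannot give a p below 0.0286. That value was reached in 23 tests and became 0.087 after Benjamini-Hochberg adjustment, so 0 ratios passed. The ratio of Lum to Dcn in bone was 1.44, 1.47, 1.34 and 1.21 in LiTra, 1.5, 1.32, 1.33 and 1.4 in Li, 0.983, 0.904, 0.749 and 0.881 in Tra and 0.893, 0.835, 0.475 and 0.736 in Co. All 8 ligature libraries lay above all 8 others, and LiTra over Co was 0.93 on the log2 scale.

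Fmod over Prelp in bone was 5.98, 9.78, 6.27 and 7.17 in LiTra, 8.23, 7.02, 6.31 and 7.38 in Li, 4.62, 6.53, 3.29 and 7.6 in Tra and 2.22, 3.29, 1.47 and 2.96 in Co. Every treated library lay above every Co library, though Tra 3 and Co 2 were equal to the digits shown. Lum over Aspn in gingiva was 6.57, 4.49, 2.93 and 6.94 in LiTra, 6.03, 6.65, 2.86 and 2.59 in Li, 1.44, 1.47, 1.37 and 1.28 in Tra and 1.17, 1.05, 1.13 and 1.08 in Co. Each treatment lay above Co with no overlap, and the ligature groups lay above Tra as well. In bone the same ratio was 2.09, 2.84, 1.54 and 2.04 in LiTra, 2.18, 3.02, 1.39 and 1.07 in Li, 0.657, 0.55, 0.624 and 0.577 in Tra and 0.41, 0.513, 0.875 and 0.451 in Co. There the ligature groups lay above Co, and Tra overlapped it.

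Among the chromosome 13 neighbours, Omd over Ogn in gingiva was 0.961, 0.92, 1.21 and 1.12 in LiTra, 0.818, 0.366, 0.936 and 1.38 in Li, 1.42, 1.51, 1.87 and 2.06 in Tra and 1.2, 2.26, 2.53 and 2.31 in Co. The LiTra and Li libraries lay below the Tra libraries and overlapped those of Co. In bone LiTra, at 0.517, 0.781, 0.646 and 0.584, lay below Tra, at 1.17, 0.981, 0.831 and 1.01, and both overlapped Co. Aspn over Ogn in bone averaged 3.16 ± 0.198 in LiTra and 7.63 ± 0.961 in Tra, against 4.45 ± 2 in Co (SD, n = 4 each). The Tra libraries lay above those of every other group. Bgn over Dcn overlapped between each treatment and Co in both tissues.

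**Figure D4:**
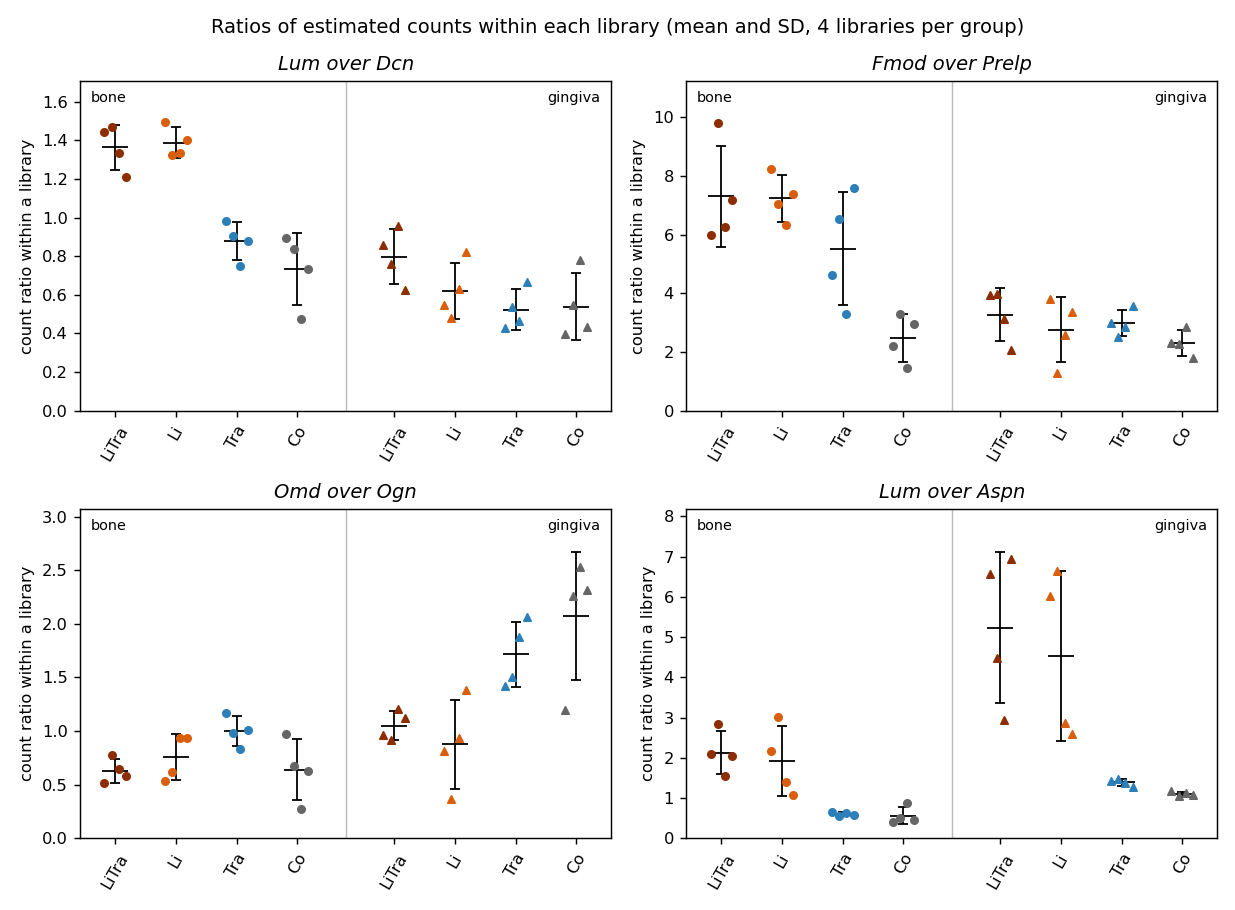
Ratios of estimated counts within each library, with mean and SD of 4 libraries per group, circles for bone and triangles for gingiva. Lum over Dcn in bone lies at 1.21 to 1.47 in LiTra and 1.32 to 1.5 in Li, above the 0.475 to 0.893 of Co, and Lum over Aspn in gingiva lies at 1.05 to 1.17 in Co.

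Likeness of profiles was measured as the root mean square difference between genes' centred log2 CPM over the 16 libraries of a tissue, which share depth and scaling. In bone the closest members were Bgn and Lum at 0.337, Dcn and Bgn at 0.349, Dcn and Ogn at 0.351 and Aspn and Omd at 0.378. In gingiva they were Aspn and Omd at 0.305 and Dcn and Lum at 0.38. The SD of log2 CPM over the 16 libraries was 0.247 for Dcn and 1.14 for Omd in gingiva, and 0.32 for Ogn and 0.834 for Aspn in bone, beside medians over all tested genes of 0.398 in gingiva and 0.461 in bone.

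The genes outside the family closest to its mean profile were, in bone, Fut10 (0.209), Mxra8 (0.228), Msrb3 (0.232) and Cacng7 (0.233), the first of 13981 genes searched. In gingiva they were Serpinf1 (0.173), which encodes the secreted serpin PEDF, Tgfb3 (0.191), a TGF-beta ligand, Olfml3 (0.202) and Zfp521 (0.202), of 13952 searched.

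Some of the enzymes known to cleave these proteins or the proteoglycans beside them were higher in LiTra and in Li than in Co. Of 11 listed proteases 10 were measured, Mmp7 with 4 counts in bone and 7 in gingiva falling below the filter. In LiTra over Co, 4 of the 10 passed as higher in bone and 5 in gingiva, and 0 as lower, where 8.29% of all genes in bone and 11.4% in gingiva passed as higher. In Li over Co, 3 passed as higher in bone and 4 in gingiva, where 2.66% of all genes in bone and 5.19% in gingiva did. Mmp3 (stromelysin) differed by 7.50 ± 0.80 in bone and 6.26 ± 1.01 in gingiva on the log2 scale in LiTra over Co, Mmp13 (collagenase) by 2.36 ± 0.31 in bone and 4.60 ± 0.54 in gingiva, and Adamts4 (aggrecanase) by 2.88 ± 0.36 in bone and 3.41 ± 0.44 in gingiva, with edgeR adjusted p values of at most 0.000994. The median log2 difference of the list was 0.81 in bone and 0.87 in gingiva, beside -0.01 in bone and -0.01 in gingiva over all tested genes. That of the 9 members was 0.52 in bone and -0.37 in gingiva.

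Of 10 other leucine-rich proteoglycans, 9 were measured, since Nepn had 6 counts in bone and 17 in gingiva. Tsku, which encodes tsukushi, was 0.98 ± 0.18 in bone (edgeR adjusted p = 0.00216) and -0.57 ± 0.11 in gingiva (edgeR adjusted p = 0.00303) for LiTra over Co, thus higher in bone and lower in gingiva. The 2 differed by 1.56 ± 0.22 (edgeR adjusted p = 0.000192). Tsku was the only 1 of the 9 to pass in bone, where 16.9% of all genes passed in either direction. In gingiva 4 passed as lower, where 11.5% of all genes did. Among these 4 were Chad, the chondroadherin gene of cartilage, at -2.22 ± 0.56 (edgeR adjusted p = 0.0112), and Ecm2, which lies next to Aspn, at -1.12 ± 0.33 (edgeR adjusted p = 0.0254). Of the 17 collagens and fibril partners, 5 passed as higher and 1 as lower in bone and 4 and 2 in gingiva, or 35.3% and 35.3% of the list, where 16.9% of all genes in bone and 22.9% in gingiva passed in either direction. Col12a1, a fibril-associated collagen of ligament, was 1.64 ± 0.34 in bone and 1.57 ± 0.28 in gingiva, and Col2a1, the cartilage collagen, was -1.45 ± 0.34 in bone, with edgeR adjusted p values of at most 0.0106.

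Among genes that build the sugar chains, some passed as higher and some as lower in LiTra over Co. For chondroitin and dermatan sulfate, 2 of 20 passed as higher and 3 as lower in bone, and 4 and 2 in gingiva, or 25% and 30% of the list, beside 16.9% of all genes in bone and 22.9% in gingiva. Chst3, a chondroitin sulfotransferase, was lower in both tissues, at -2.24 ± 0.37 in bone (edgeR adjusted p = 0.00125) and -1.41 ± 0.27 in gingiva (edgeR adjusted p = 0.00291), and Csgalnact1, which starts chondroitin chains, was 2.36 ± 0.44 in gingiva (edgeR adjusted p = 0.00238). For keratan sulfate, carried by Lum, Fmod, Kera and Omd, 0 of 8 passed in bone, where 16.9% of all genes passed in either direction. In gingiva 3 passed as higher and 2 as lower, or 62.5% of the list, beside 22.9% of all genes. Chst2 at 1.52 ± 0.25 (edgeR adjusted p = 0.00119) was among them. Of 14 receptors and ligands tied to these proteins, 3 passed as higher and 1 as lower in bone, and 7 and 2 in gingiva, beside the same shares over all genes. Cd14, a co-receptor of Toll-like receptors, was 3.08 ± 0.37 in bone (edgeR adjusted p = 0.000296) and 3.24 ± 0.57 in gingiva (edgeR adjusted p = 0.00174). In bone the median log2 difference in LiTra over Co was 0.10 for the other leucine-rich proteoglycans, 0.35 for the collagens, 0.27 for chondroitin and dermatan sulfate, 0.25 for keratan sulfate and 0.38 for the receptors and ligands. In gingiva it was -0.95 for the other leucine-rich proteoglycans, 0.52 for the collagens, 0.13 for chondroitin and dermatan sulfate, 0.30 for keratan sulfate and 0.33 for the receptors and ligands. In Tra over Co edgeR and DESeq2 called 0 of the 78 genes of these 6 lists in each tissue. At an unadjusted edgeR p under 0.05 were 10 in bone and 3 in gingiva. Over all genes it was 2023 of 21205 in bone and 1323 of 20143 in gingiva. In LiTra over Li edgeR called 0 of the 78 as well, while DESeq2 called 1 in bone and 8 in gingiva. At an unadjusted edgeR p under 0.05 were 5 in bone and 18 in gingiva. Over all genes it was 1352 of 21205 in bone and 3736 of 20143 in gingiva. In Li over Co 8 of the 78 passed in bone and 17 in gingiva, where 3.51% of all genes in bone and 7.49% in gingiva passed. In LiTra over Tra 9 of the 78 passed by edgeR in bone and 33 in gingiva. There 5.56% of all genes in bone and 18.8% in gingiva passed. Some of the marker sums given above also lay apart from Co in LiTra, and others overlapped it. Whether they were related to these genes was not tested.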

How the data were processed

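Gene-level estimated counts were deposited by the authors, 1 table per tissue, as whole-number estimates for 55359 identifiers; per the submitters' processing notes, Trimmomatic 0.39, FastQC 0.11.9, HISAT2 2.2.1, StringTie 2.1.7, DESeq2 1.32.0 and genome build GRCm39 were named. Strand handling is not given in the sources used here. Each tissue's 16 libraries were fitted together with edgeR 4.0.16 in R 4.3.3 (TMM scaling, filterByExpr with a minimum count of 10 and total of 15, quasi-likelihood F test, Benjamini-Hochberg adjustment over all tested genes, threshold 0.05), and differences between tissues in 1 fit of all 32 libraries. An SE is the log2 difference divided by the square root of F, and approximate 95% intervals span 1.96 SE each side. Such an interval is slightly narrower than the F test implies, so it can leave out 0 where that test does not reach 0.05. CPM for a gene set against others were divided by transcript lengths of an annotation of build GRCm38, so no gene coordinates of the count tables are given. Alternatives were library totals, DESeq2 size factors, DESeq2 1.42.0, 2 other filters, a replicate block and each library left out. The fit was tested on simulated counts. The genes described, the gene and marker lists and the tests were chosen with earlier results of these data known. All 9 members are described, and of other lists up to 3 passing genes with the smallest p are named. Same-numbered libraries are not known to share an animal.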

Additional observations from a re-analysis of the deposited data

Results flagged for a closer look

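In 4 of 72 groups of 4 libraries, 1 library lay farther from the others than Dixon's critical value for 4 values allows, and chance gives about 1 in 20. Fmod in gingiva Co 4 was lowest of its group at 40.9 CPM. Kera was highest in bone LiTra 3 at 4.86 CPM, in gingiva LiTra 3 at 0.781 CPM and in bone Co 2 at 0.0694 CPM, the last from 6 counts. The LiTra difference of Fmod was larger in bone than in gingiva by 1.37 on the log2 scale, and that of Kera by 6.53. Both passed the test of the difference itself in the fit of all 32 libraries, where the Kera value rested on bone LiTra 3.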

How the results depend on the processing

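With 4 libraries a group, small differences of these genes could not be told from library spread. Counts of members called in bone were 1 in Li over Co, 2 in LiTra over Co and 0 in Tra over Co and LiTra over Tra. Library totals in place of TMM scaling gave 0 in Li over Co and 0 in LiTra over Co, DESeq2 gave 2, 4, 1 and 1 in that order, and a filter of CPM over 1 in at least 4 libraries gave 2 in Li over Co. In gingiva, DESeq2 gave 4 in Li over Co and 4 in LiTra over Co (2 by edgeR in each), 1 in LiTra over Li (0) and 2 in LiTra over Tra (1). For differences between tissues DESeq2 gave 1 for Li (0 by edgeR), and for LiTra, 2 by edgeR, library totals and no filter gave 0 and leaving out bone LiTra 1, Tra 3 and Co 3 gave 1. Replicate numbers were not shown to pair the libraries: correlations of deviations between same-numbered libraries ran from -0.417 to 0.673, and no set had all over 0.1. Between bone and gingiva the same number gave the highest correlation for 3 of 4 bone libraries in Tra and in LiTra. In Co and in Li it did so for 1 of 4. Correlations of this kind cannot settle whether an animal was shared, and the main fits took all libraries as unpaired. With the replicate block the members called were 2 in bone Li over Co, 4 in gingiva LiTra over Co, 2 in gingiva LiTra over Tra and 1 for the tissue difference of LiTra. With 1 library left out the members called were 0 to 1 in bone Li over Co, 2 to 3 in bone LiTra over Co, 0 to 3, 1 to 4, 0 to 1 and 0 to 5 in gingiva Li over Co, LiTra over Co, LiTra over Li and LiTra over Tra, 4 to 5 in bone Co over gingiva Co and 0 to 3 for the tissue difference of LiTra. Over all genes, bone Li over Co gave 745 calls, but 5 with library totals, 410 without a filter, 1904 by DESeq2, 1775 without those 3 libraries and 202 to 1232 with 1 library left out; bone LiTra over Co gave 3589, but 12 with library totals and down to 2169; gingiva Li over Co gave 1509, but 921 without a filter, 2755 by DESeq2 and down to 521; gingiva LiTra over Li gave 17, but 1413 by DESeq2. Over all genes, leaving out 1 gingiva library gave 3206 to 4903 calls in LiTra over Co and 0 to 893 in LiTra over Li. In gingiva LiTra over Tra it gave 2402 to 4150. With 1 of the 32 libraries left out, bone Co over gingiva Co gave 11069 to 12562 calls. The tissue difference of LiTra gave 1965 to 3456. Library totals moved the median of all genes by up to 0.13 on the log2 scale. With 1 library left out 2469 single values of members kept their direction and side of the threshold, 51 lost and 16 gained a call and 56 changed sign. Under the other settings 844 kept both, 10 lost and 25 gained a call and 6 changed sign. Those that changed sign were all uncalled. Under other settings they were bone, LiTra over Li Bgn at -0.021 (library totals), bone, LiTra over Tra Dcn at 0.0079 (library totals), bone, LiTra over Co Ogn at 0.012 (without those 3 libraries), bone, LiTra over Li Omd at 0.14 (without those 3 libraries), gingiva, interaction Dcn at 0.013 (library totals) and gingiva, LiTra over Li Ogn at -0.038 (replicate block). With 1 library left out, the ranges that crossed 0 were in bone, Li over Co, Omd -0.42 to 0.19; in bone, LiTra over Co, Omd -0.35 to 0.14 and Prelp -0.32 to 0.065; in bone, LiTra over Li, Aspn -0.47 to 0.31, Bgn -0.10 to 0.27, Fmod -0.027 to 0.35, Kera -1.50 to 2.75, Omd -0.25 to 0.29 and Prelp -0.022 to 0.36; in bone, LiTra over Tra, Dcn -0.18 to 0.048, Kera -1.41 to 4.02, Ogn -0.18 to 0.17 and Prelp -0.084 to 0.41; in bone, interaction, Kera -4.97 to 0.50; in Li effect, bone minus gingiva, Dcn -0.12 to 0.17; in LiTra effect, bone minus gingiva, Bgn -0.25 to 0.20; in bone Co over gingiva Co, Omd -0.043 to 0.47; in gingiva, Li over Co, Kera -0.080 to 1.12; in gingiva, LiTra over Co, Fmod -0.16 to 0.19; in gingiva, LiTra over Li, Aspn -0.20 to 0.58, Ogn -0.41 to 0.30 and Omd -0.28 to 0.75; in gingiva, LiTra over Tra, Bgn -0.14 to 0.21 and Fmod -0.42 to 0.029; in gingiva, Tra over Co, Aspn -0.32 to 0.0057, Lum -0.0044 to 0.34 and Prelp -0.29 to 0.049; in gingiva, interaction, Aspn -0.040 to 0.74, Dcn -0.20 to 0.036 and Ogn -0.19 to 0.53. The cause was not tested.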
